A study of Mus musculus with 4 samples.

Results

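Dnah9 and 9 further subunits of the outer dynein arm were followed in mouse lung, 10 genes of the 21931 in the deposited expression table. They were taken by gene symbol, and the choice was made with earlier results of these data known. The outer dynein arm is the motor on the outer side of each microtubule doublet of a motile cilium, and it slides neighbouring doublets against each other to make the cilium beat. It is built from heavy chains, which hold the ATP-burning motor domains, intermediate chains, which hold the complex together and anchor it, and small light chains. In airway cilia the heavy chain Dnah5 runs along the whole axoneme and is paired with Dnah11 near the cell and with Dnah9 toward the tip.

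Total RNA of whole lung from mice of strain C57BL6 aged 2 months, with no treatment, was sequenced in 4 libraries: 1 wild-type library, 2 libraries labelled Dnah9 knockout (knockout 1 and 2) and 1 library whose genotype reads Hez, a term left unexplained in the labels and used here as written. The labels do not say which part of Dnah9 was removed, how many mice gave each library, or whether the knockout is constitutive. Library totals lay between 15860478 and 16553480 reads. Lung markers were abundant, with Sftpc, a surfactant gene of alveolar type 2 cells, at 11836 to 13351 FPKM (reads scaled to gene length and library total) and all 6 alveolar type 2, 6 alveolar type 1 and 6 endothelial markers detected. Of 6 spermatogenic cell markers, for a cell type that also builds dynein arms, 4 or 5 had 0 reads in each library. Wild type and Hez had 1 library each, so every comparison with them rests on that library.

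Of the 10 subunit genes 9 had reads in every library and entered the test. Nme8, a thioredoxin-like protein of the arm, had 0 reads in all 4 libraries, which allows up to 3 reads, or 0.0698 to 0.0729 FPKM per library (counting error only). In the wild-type library the levels ran from 75.3 FPKM for Dynlrb2 down to 2.31 for Dnah11. The light chains led: Dynlrb2, a roadblock-type light chain, was followed by Dynll1, an LC8-type light chain shared by many complexes, at 32.4 FPKM, by Dnal4, an LC8-related light chain, at 10.5, and by Dnal1, a leucine-rich light chain, at 7.18. The heavy chain Dnah5 stood at 6.81 FPKM, the intermediate chains Dnai2 and Dnai1 at 6.06 and 5.65, and Dnah9 at 3.57, ahead of Dnah11. With 1 wild-type library the neighbouring levels in this order have no replicate error. The order also rests on the gene lengths used for FPKM, 556 bases for Dynlrb2 and 3890 for Dynll1. The length of Dynll1 equals its whole span on the chromosome, which lowers its FPKM if part of that span is intron. By reads Dynll1 was ahead of Dynlrb2 in wild type, with 2032 against 674 (125.4 against 41.6 CPM). In both knockout libraries Dnah9, at 0.919 and 1.004 FPKM, was the lowest of the 9 detected subunits, below Dnah11 at 1.701 and 1.97.

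**Figure D1:**
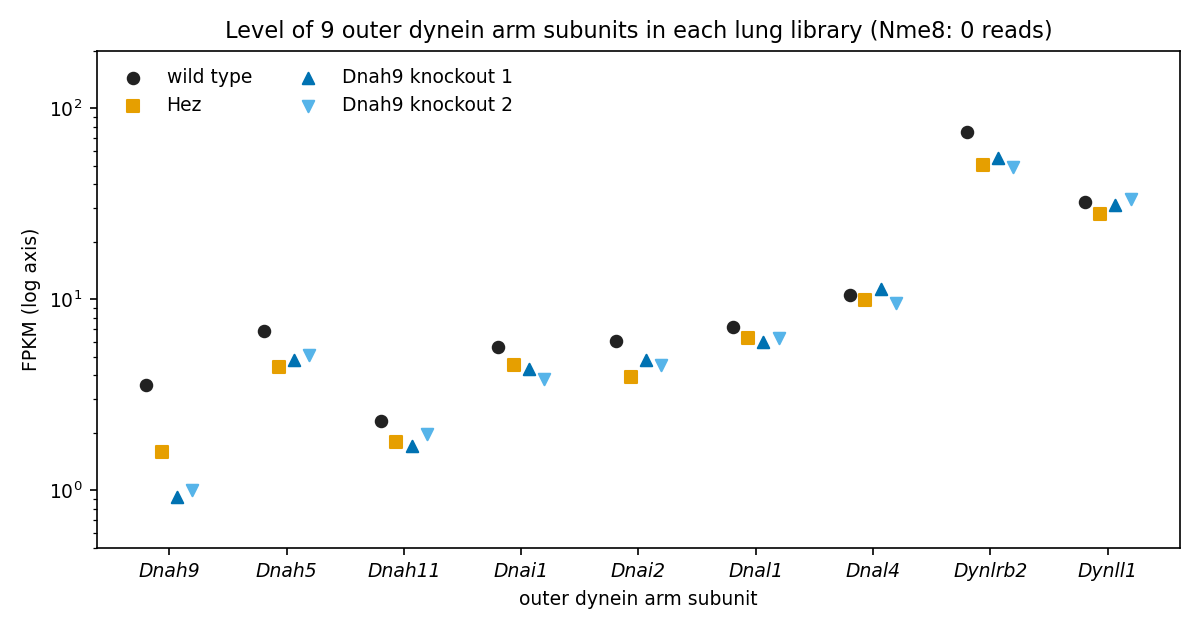
FPKM (log axis) of the 9 detected subunits in the 4 lung libraries, with each point a library. Dnah9 stands at 3.57 in wild type, 1.59 in Hez, and 0.919 and 1.004 in the knockouts, and Dynll1 between 28.1 and 33.4.

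Promoter sequence is shown for 5 subunits, the heavy chains Dnah9 and Dnah5 and the 3 subunits with a facing pair of X-box words, whose levels in the libraries are given next. In ciliated cells the RFX factors bind the X-box, made of the word GTTGCC (or GTTGCT or GTTACC or GTTACT) and its reverse complement facing it, and Foxj1 binds forkhead sites such as TGTTTAC. All 10 subunits matched a RefSeq promoter window of GRCm38.p6, Dnai1 and Dnai2 under the older symbols Dnaic1 and Dnaic2, and the 250 bases before the annotated start were searched on both strands. The last 120 bases before the start are printed 5′ to 3′ along the gene, with X-box words in capitals, at chr11:66168552-66168671 (minus strand) for Dnah9, chr15:28203646-28203765 (plus strand) for Dnah5, chr4:41569674-41569793 (plus strand) for Dnai1, chr11:114727299-114727418 (plus strand) for Dnai2 and chr8:116504895-116505014 (plus strand) for Dynlrb2.
Dnah9: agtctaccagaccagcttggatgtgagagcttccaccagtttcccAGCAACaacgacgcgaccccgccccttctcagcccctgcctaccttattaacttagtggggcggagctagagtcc
Dnah5: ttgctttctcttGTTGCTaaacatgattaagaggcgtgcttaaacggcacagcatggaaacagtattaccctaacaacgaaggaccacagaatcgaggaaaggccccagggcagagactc
Dnai1: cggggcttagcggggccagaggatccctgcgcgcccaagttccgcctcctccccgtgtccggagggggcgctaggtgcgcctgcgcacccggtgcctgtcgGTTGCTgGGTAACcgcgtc
Dnai2: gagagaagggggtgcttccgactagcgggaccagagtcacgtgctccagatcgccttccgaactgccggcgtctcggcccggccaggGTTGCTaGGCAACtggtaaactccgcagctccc
Dynlrb2: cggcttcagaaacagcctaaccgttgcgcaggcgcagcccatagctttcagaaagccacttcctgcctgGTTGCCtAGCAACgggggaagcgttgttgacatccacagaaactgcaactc
A facing pair of words with 1 base between them was found in Dnai1 at position -19, in Dnai2 at -33 and in Dynlrb2 at -51, where -1 is the base before the start. Such a pair, with 0 to 3 bases between the words, occurs in 3 of the 10 subunit windows and in 0.779% of all 32851 windows. This pair was defined after the single words had been seen. Dnah9 and Dnah5 held a single word, at -75 and -108. At least 1 of the 4 words occurs in 6 of 10 subunit windows, Dynll1 among them, and in 30.7% of all windows, so a single word is common. The forkhead word was found in 0 of 10 subunit windows and in 3.17% of all windows. A match is a run of letters and not a measured binding site, and Dnah11, Dnal1, Dnal4 and Nme8 held none of the words in this window.

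Dnah9 itself (ENSMUSG00000056752, chromosome 11, 65722108 to 66059377, minus strand, GRCm39), the targeted gene, was counted at 917 reads in wild type, 420 in Hez, 240 in knockout 1 and 254 in knockout 2. As CPM (reads scaled to library totals adjusted by the TMM method), this was 56.6, 25.4, 14.8 and 15.98. The knockout libraries lay close together, below Hez, and Hez lay below wild type, with no overlap of the 95% exact Poisson intervals between these 3 levels (53.0 to 60.4 in wild type, 23.0 to 28.0 in Hez, and 12.9 to 16.7 and 14.1 to 18.1 in the knockouts). The intervals cover counting error and not the spread between mice. From wild type to the knockouts, with 2 libraries set against 1, Dnah9 fell by 1.88 in log2 units (edgeR quasi-likelihood test, SE 0.145, adjusted p = 0.00864). It was 1 of 9 tested subunits called lower, against 0.0399% of all 15055 tested genes. The call was lost in limma fits of log2 FPKM (adjusted p = 0.624 to 0.82) and when wild type and Hez were joined as the reference (-1.42, adjusted p = 0.627). Of the Dnah9 sequence in 50-base words, 2.80% also occurred in other transcripts of the GENCODE vM21 annotation, nearly all in the antisense transcript Gm12296 at its start, and whether the counting used strand is not stated.

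The remaining Dnah9 reads in the knockout libraries, 27.2% of the wild-type level on average, do not show which exons they cover, since counts are per gene. Against Hez, the Dnah9 difference of the knockouts was -0.73 (SE 0.152, edgeR adjusted p = 0.599), with an unadjusted p of 0.00139. At that unadjusted p below 0.05 on the lower side stood 1 of 9 subunits, Dnah9, and 2.11% of all genes. Past the adjusted threshold in edgeR stood 0 of 9 subunits on the lower side and 0.00664% of all genes, and DESeq2 and limma also called 0 subunits.

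The other heavy chains were also below the wild-type library, by less. Dnah5 (ENSMUSG00000022262, chromosome 15, 28203898 to 28472198, plus strand), the heavy chain found along the whole axoneme of airway cilia, had 1714 reads in wild type, 1142 in Hez, 1226 in knockout 1 and 1267 in knockout 2. These were 105.8, 69.1, 75.4 and 79.7 CPM, so that Hez was the lowest library and wild type stood apart from the other 3. The log2 difference of the knockouts from wild type was -0.45, short of the threshold in edgeR (SE 0.1, adjusted p = 0.402). Dnah11 (ENSMUSG00000018581, chromosome 12, 117841717 to 118162778, minus strand), the proximal partner, had 537 reads in wild type, 427 in Hez, 403 in knockout 1 and 452 in knockout 2. At 33.1, 25.8, 24.8 and 28.4 CPM the Hez library lay between the knockouts, and the 95% counting interval of knockout 2 (25.9 to 31.2) overlapped that of wild type (30.4 to 36.1). The Dnah11 difference from wild type was -0.32 (SE 0.157, edgeR adjusted p = 0.996). Of its 50-base words 4.77% were shared, mostly with Cdca7l, a gene on the opposite strand that overlaps its end and had 102 to 109 reads.

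The make-up of the heavy chain reads differed between libraries. Of all reads on Dnah9, Dnah5 and Dnah11 together, Dnah9 held 28.9% in wild type and 21.1% in Hez, with exact Clopper-Pearson 95% intervals of 27.4 to 30.6 and of 19.3 to 23.0. The share was 12.8% in knockout 1 and 12.9% in knockout 2, each with an interval of 11.4 to 14.4. These intervals cover counting error and not the spread between mice. Per unit length, the FPKM of Dnah9 was 0.525 times that of Dnah5 in wild type, 0.361 in Hez, and 0.192 and 0.197 in the knockouts. The knockout libraries agreed closely and Hez lay between them and wild type. The same ratio for Dnah11 was 0.339 in wild type, 0.404 in Hez, and 0.356 and 0.386 in the knockouts, with Hez highest and wild type lowest. The sum of Dnah9 and Dnah11, the partners of Dnah5, stood at 0.863 of the Dnah5 level in wild type, 0.765 in Hez, and 0.547 and 0.582 in the knockouts. Within this sum only the part of Dnah9, the targeted gene, was lower than in wild type. These ratios are within a library and do not depend on the scaling between libraries. No test was made, since 2 libraries against 1 cannot give an exact permutation p below 0.05.

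Both intermediate chains lay below wild type in each other library. Dnai1 (ENSMUSG00000061322, chromosome 4, 41569775 to 41638158, plus strand) had 253 reads in wild type, 208 in Hez, 196 in knockout 1 and 169 in knockout 2. At 15.6, 12.6, 12.1 and 10.6 CPM it had the fewest reads of the 9 detected subunits, and the 95% counting intervals of Hez (10.9 to 14.4) and knockout 1 (10.4 to 13.9) overlapped that of wild type (13.8 to 17.7). The difference of the knockouts from wild type was -0.46 (SE 0.209, edgeR adjusted p = 0.984). Dnai2 (ENSMUSG00000034706, chromosome 11, 114618234 to 114648715, plus strand) had 446 reads in wild type, 296 in Hez, 358 in knockout 1 and 328 in knockout 2. Here Hez was the lowest, at 17.9 CPM against 22.0 and 20.6 in the knockouts and 27.5 in wild type, and the difference of the knockouts from wild type was -0.37 (SE 0.162, edgeR adjusted p = 0.967).

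The light chains separated. Dynlrb2 (ENSMUSG00000034467, chromosome 8, 117231713 to 117242654, plus strand), the light chain with the highest FPKM, had 674 reads in wild type, 464 in Hez, 501 in knockout 1 and 435 in knockout 2. At 41.6, 28.1, 30.8 and 27.4 CPM, Hez lay between the knockouts and wild type stood apart, and the log2 difference from wild type was -0.52 (SE 0.145, edgeR adjusted p = 0.599). Dnal1 (ENSMUSG00000042523, chromosome 12, 84161140 to 84194272, plus strand), which binds the motor domain of a heavy chain, had 802 reads in wild type, 718 in Hez, 683 in knockout 1 and 687 in knockout 2. Its 49.5, 43.4, 42.0 and 43.2 CPM put the 3 other libraries within a narrow band below wild type (-0.22, SE 0.117, edgeR adjusted p = 0.996). The 95% counting intervals of Hez (40.3 to 46.7) and knockout 2 (40.1 to 46.6) overlapped that of wild type (46.1 to 53.1). Dnal1 shared 5.46% of its 50-base words with other transcripts, mostly Pnma1 on the opposite strand (37 to 56 reads), and Dynll1 shared 3.33% of its own.

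Dnal4 (ENSMUSG00000022420, chromosome 15, 79645654 to 79662050, minus strand) had 404 reads in wild type, 391 in Hez, 443 in knockout 1 and 362 in knockout 2. At 24.9, 23.7, 27.2 and 22.8 CPM, wild type and Hez both lay between the knockouts (0.00, SE 0.174, edgeR adjusted p = 0.999). Dynll1 (ENSMUSG00000009013, chromosome 5, 115435169 to 115439058, minus strand) had 2032 reads in wild type, 1809 in Hez, 1997 in knockout 1 and 2061 in knockout 2. Wild type, at 125.4 CPM, lay between the knockouts at 122.8 and 129.7, with Hez lowest at 109.5 (0.01, SE 0.103, edgeR adjusted p = 0.996). Both differences were far smaller than their SE, and their sign turned under other scalings and filters. With library totals alone both moved by about as much as the median of all genes, which went from 0.0045 to -0.0078. Both genes are also used outside cilia, Dynll1 by cytoplasmic dynein and many other proteins. Nme8 lies on chromosome 13 from 19829248 to 19881964 (ENSMUSG00000041138, minus strand).

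**Figure D2:**
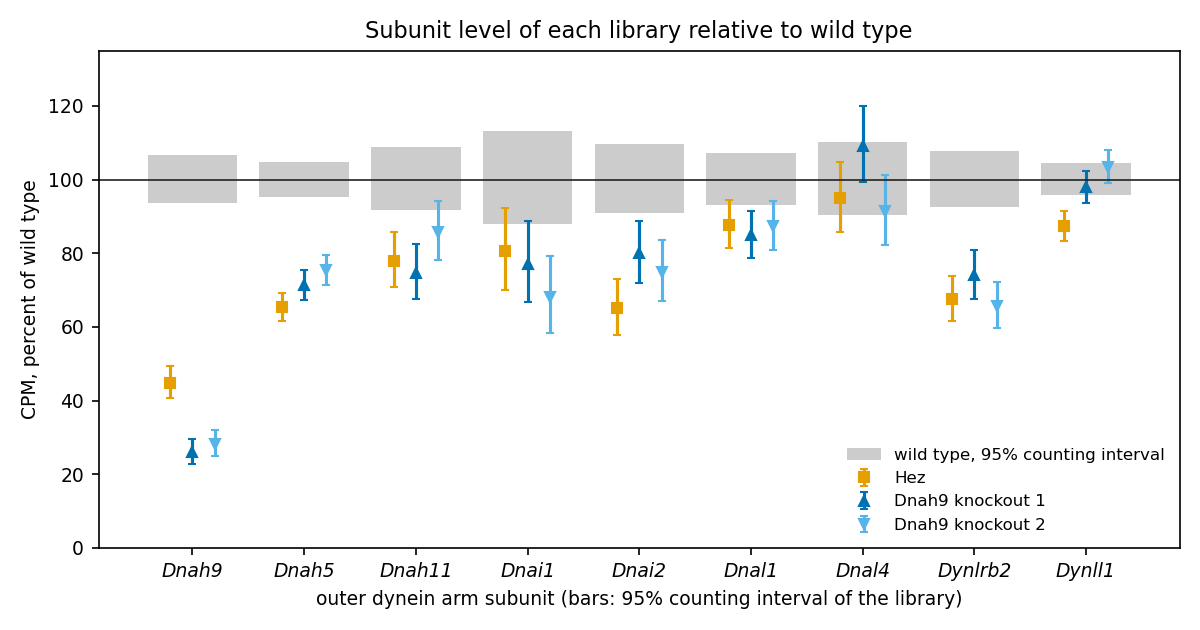
CPM of each subunit in the Hez and the 2 knockout libraries as a percentage of the wild-type library, with 95% exact Poisson counting intervals, and the interval of wild type as a grey band. Dnah9 lies at 44.9%, 26.1% and 28.2%, the heavy and intermediate chains and Dynlrb2 at 65.1% to 85.8%, and Dnal4 and Dynll1 at 87.3% to 109%.

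Seen as a group, 7 of the 9 tested subunits were below wild type in both knockout libraries, a pattern shown by 33.4% of all tested genes. The same 7 (Dnah9, Dnah5, Dnah11, Dnai1, Dnai2, Dnal1 and Dynlrb2) were below wild type in all 3 other libraries, as were 25.2% of all genes. Of these 7, Dnah11 and Dnal1 held no X-box word in the promoter window and the other 5, the targeted Dnah9 among them, held at least 1. Of the tested subunits outside this group, Dynll1 held 1 word and Dnal4 held none. At least 1 such word occurs in 30.7% of all promoter windows, and a link between words and levels was not tested. At an unadjusted p below 0.05 on the lower side against wild type stood 3 of 9 (Dnah9, Dnah5 and Dynlrb2), against 3.37% of all genes. The 8 tested subunits other than Dnah9 had a median log2 difference from wild type of -0.34, beside 0.00 over all tested genes. They ranged from -0.52 to 0.01, with 6 of 8 negative, as were 7365 of all 15055 tested genes. Library by library the median difference from wild type was -0.35 for knockout 1, -0.31 for knockout 2 and -0.33 for Hez. These 3 medians share the single wild-type library. With wild type and Hez joined as the reference, the median was -0.14.

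Against the Hez library the 8 other subunits had a median log2 difference of 0.07, beside 0.01 over all genes. They ranged from -0.15 for Dnai1 to 0.25 for Dnai2, with 2 of 8 negative, as were 7157 of all 15055 tested genes. Both knockout libraries were below wild type and Hez for 3 of the 9 subunits (Dnah9, Dnai1 and Dnal1), as they were for 16.3% of all genes. Hez lay above both knockouts for those 3, between them for Dnah11, Dnal4 and Dynlrb2, and below both for Dnah5, Dnai2 and Dynll1. Hez against wild type, with 1 library each and no test, was lower by 1.5-fold or more for Dnah9, Dnah5 and Dnai2, 3 of 9, against 6.84% of all genes. The largest of these differences was that of Dnah9, at -1.15 in log2 CPM, followed by Dnai2 at -0.62 and Dnah5 at -0.61.

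**Figure D3:**
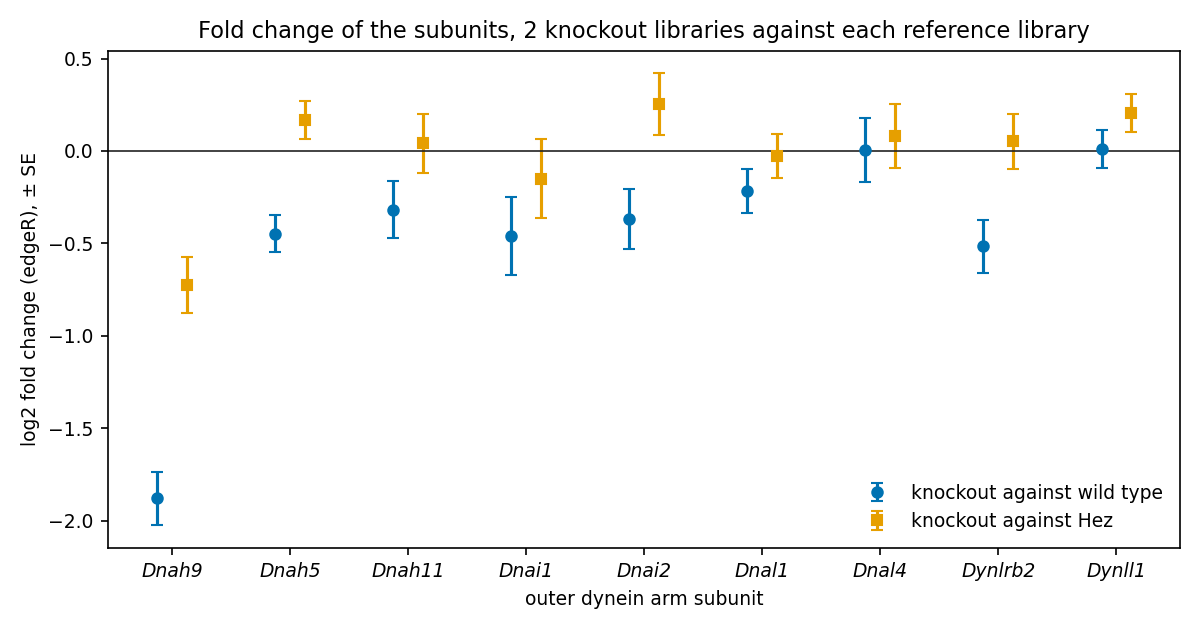
Log2 fold change of the 2 knockout libraries against the wild-type library (circles) and against the Hez library (squares) for the 9 tested subunits. Bars give the standard error derived from the edgeR test. Dnah9 is lower in both comparisons (-1.88 and -0.73), and the 8 other subunits lie between -0.52 and 0.01 against wild type and between -0.15 and 0.25 against Hez.

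The level of cilia genes in whole lung also depends on how many ciliated cells the piece holds, and in bulk RNA fewer cells of a type and less RNA per cell cannot be told apart. The 12 multiciliated cell markers, none of them a subunit, summed to 881 CPM in wild type, 604 in Hez, 676 in knockout 1 and 671 in knockout 2. All 12 were lower than wild type in the knockouts and in Hez, with 0 at 0 reads in any library. Of all 15055 tested genes 7365 were lower in the knockouts and 7595 in Hez, against the same single wild-type library. In edgeR 0 of 12 were called and 8 had an unadjusted p below 0.05 on the lower side (3.37% of all tested genes), with Tppp3 at -0.20 and Tmem212 at -0.46 as the most abundant. Relative to wild type, the marker sum was 68.5% in Hez, 76.7% in knockout 1 and 76.2% in knockout 2. The summed level of 6 subunits (Dnah5, Dnah11, Dnai1, Dnai2, Dnal1 and Dynlrb2, a group formed after their values were seen) was 72.1%, 75.8% and 76.9% of wild type in the same order. Set against the markers of its own library, this sum was 105% of the wild-type ratio in Hez, 98.8% in knockout 1 and 101% in knockout 2. Dnal4 and Dynll1 were left out of the sum for their values, so its closeness to the markers is in part set by the choice of genes. The marker sum also leans on Tppp3, which gave 5869 of its 14278 reads in wild type. In the knockouts Tppp3 was the least lowered of the 12 markers (-0.20, beside a list median of -0.52). Tppp3 stood at 362.3 CPM in wild type, 269.3 in Hez, and 322.7 and 310.1 in the knockouts, a smaller fall than that of the marker sum. Without Tppp3 each ratio to the markers, in percent of wild type, would therefore be higher than printed here. The size of that shift was not computed.

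Dnah9 was below the markers as well. It had 6.42 reads per 100 marker reads in wild type, 4.21 in Hez, 2.18 in knockout 1 and 2.38 in knockout 2. In percent of the wild-type ratio this was 65.5 in Hez, 34.0 in knockout 1 and 37.1 in knockout 2, compared with 44.9, 26.1 and 28.2 in CPM. Dnah5 stood at 95.3, 92.9 and 98.9 percent of its wild-type ratio to the markers, Dnai2 at 94.9, 104 and 98.4, and Dynlrb2 at 98.5, 96.5 and 86.4. Dnah11 stood at 114, 97.5 and 113 percent, Dnai1 at 118, 101 and 89.4, and Dnal1 at 128, 111 and 115, so that these subunits did not all follow the markers. Dnal4 and Dynll1 lay above their wild-type ratio, at 138, 142 and 120 percent and at 127, 128 and 136 percent. The ratios are descriptions of 4 libraries, and the part of cell number in them was not tested. All of them use the same marker sum and so share its weight on Tppp3, without which each percentage would be higher.

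**Figure D4:**
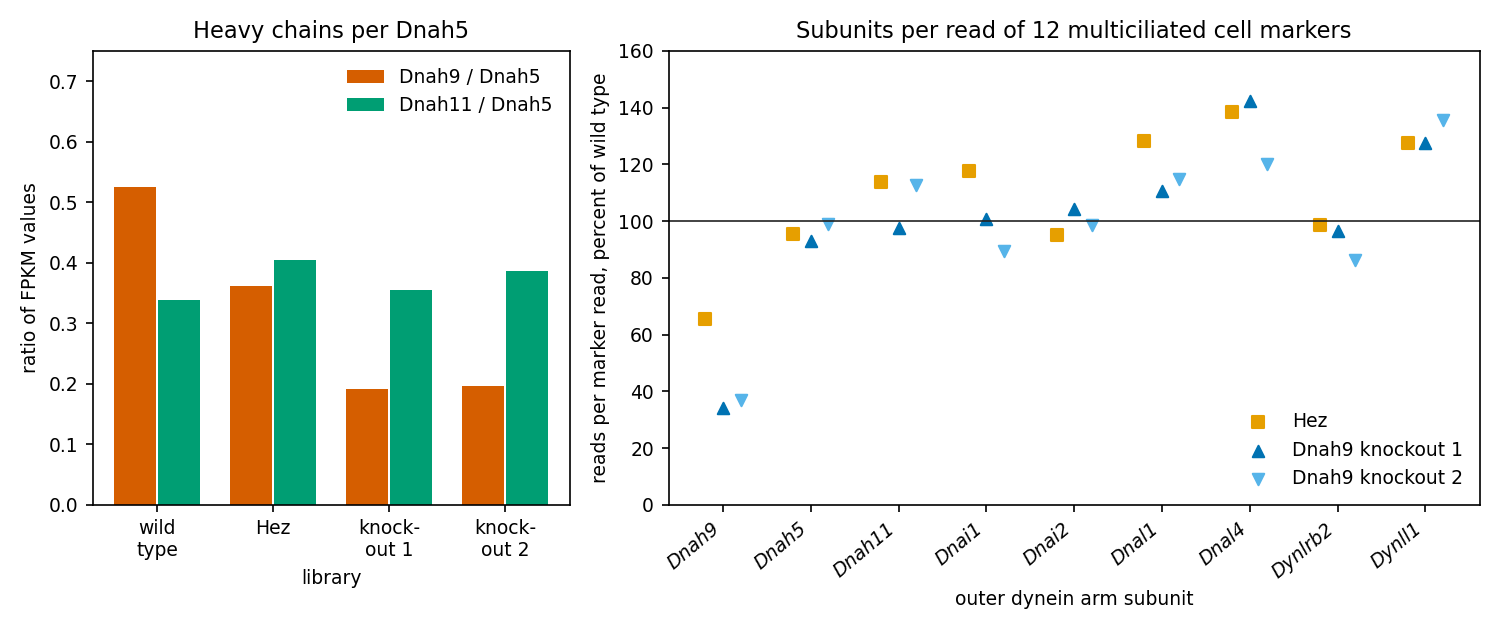
Left, FPKM of Dnah9 and of Dnah11 divided by that of Dnah5 within each library, as bars from 0. Right, reads of each subunit per read of 12 multiciliated cell markers, in percent of the wild-type library. Dnah9 lies at 65.5, 34.0 and 37.1 percent on the right, Dnah5, Dnai2 and Dynlrb2 between 86.4 and 104, Dnah11, Dnai1 and Dnal1 between 89.4 and 128, and Dnal4 and Dynll1 between 120 and 142.

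Genes that act with the outer arm were counted from lists chosen by function, and each count against wild type is read beside the 0.0399% of all tested genes called lower and the 3.37% lower at an unadjusted p below 0.05. Of the docking complex and its partners, which fix the arm to the doublet, 0 of 6 tested genes were called and 3 had an unadjusted p below 0.05 on the lower side, with a median of -0.63 against wild type. Their most abundant members were the calcium-binding Efcab1 (-0.63, SE 0.171, edgeR adjusted p = 0.566) and Odad3 (-0.36, SE 0.248, adjusted p = 0.996). Hez had a median of -0.77 in this list. Of a list made for factors that assemble dynein arms in the cytoplasm, 0 of 13 tested genes were called. In this list 2 genes had an unadjusted p below 0.05 on the lower side, Cfap45 (-0.82) and Lrrc6 (-0.53). Cfap45 is not an established assembly factor, so its count does not speak for such factors. The list median was -0.32, with Cfap298 at -0.02 and Wdr92 at -0.10 as the most abundant. Dnaaf4 and Dnaaf6 were not tested for lack of reads.

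The inner arm heavy chains, motors of the other dynein row, had 0 of 9 called and 7 with an unadjusted p below 0.05 on the lower side (3.37% of all genes), and a median of -0.51, with Dnah6 at -0.63 (SE 0.101, edgeR adjusted p = 0.208) and Dnah12 at -0.51 (SE 0.113, adjusted p = 0.402). Of 8 transcription factors of motile ciliogenesis 0 were called and 3 had an unadjusted p below 0.05 on the lower side, with a median of -0.36 and Rfx1 at -0.06. Foxj1, the main activator of the motile cilia programme, stood at 103.7 CPM in wild type, 68.4 in Hez, and 70.6 and 70.9 in the knockouts (-0.55, SE 0.0974, edgeR adjusted p = 0.273). Club cells share the airway lining with ciliated cells. Of their 10 markers 3 (Scgb3a1, Scgb3a2 and Bpifa1) were called lower against wild type, all 10 had an unadjusted p below 0.05 on that side, and the median was -0.86, with -1.13 in Hez. Their most abundant markers Scgb1a1 and Cbr2 stood at -0.32 and -0.24. The alveolar type 2, alveolar type 1 and endothelial markers had medians of 0.20, 0.07 and 0.18, with 0 called in edgeR and 4, 0 and 3 of 6 genes each at an unadjusted p below 0.05 on the higher side, where 1.81% of all tested genes and 0 of 9 subunits stood. What part these shifts in other cell types have in the subunit values was not tested.

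Other dynein genes were counted in the same way. Of 12 tested light chain, intermediate chain and heavy chain relatives 0 were called, 1 had an unadjusted p below 0.05 on the lower side, and the median was -0.11, with members from -0.46 for Dnai3, an intermediate chain of axonemal dynein, to 0.58 for Dnah8. The roadblock chain Dynlrb1, the relative of Dynlrb2 used by cytoplasmic dynein, was at 67.3 FPKM in wild type, 61.7 in Hez, 71.4 in knockout 1 and 68.4 in knockout 2 (0.07, SE 0.104, edgeR adjusted p = 0.996), and Dynlt3 stood at -0.02. The outer arm heavy chains of sperm, Dnah8 and Dnah17, had 84 and 72 reads in wild type, 106 and 45 in Hez, 108 and 65 in knockout 1, and 141 and 70 in knockout 2. Their differences from wild type were 0.58 (SE 0.316, edgeR adjusted p = 0.996) and -0.08 (SE 0.359, adjusted p = 0.996), at counts that give little precision. Of 8 tested subunits of cytoplasmic dynein 1 and 2, 0 were called and 0 had an unadjusted p below 0.05 in either direction, with the heavy chain Dync1h1 at -0.03, Dync1li2 at -0.07 and a list median of -0.12. The list counts are from edgeR alone.

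**Figure D5:**
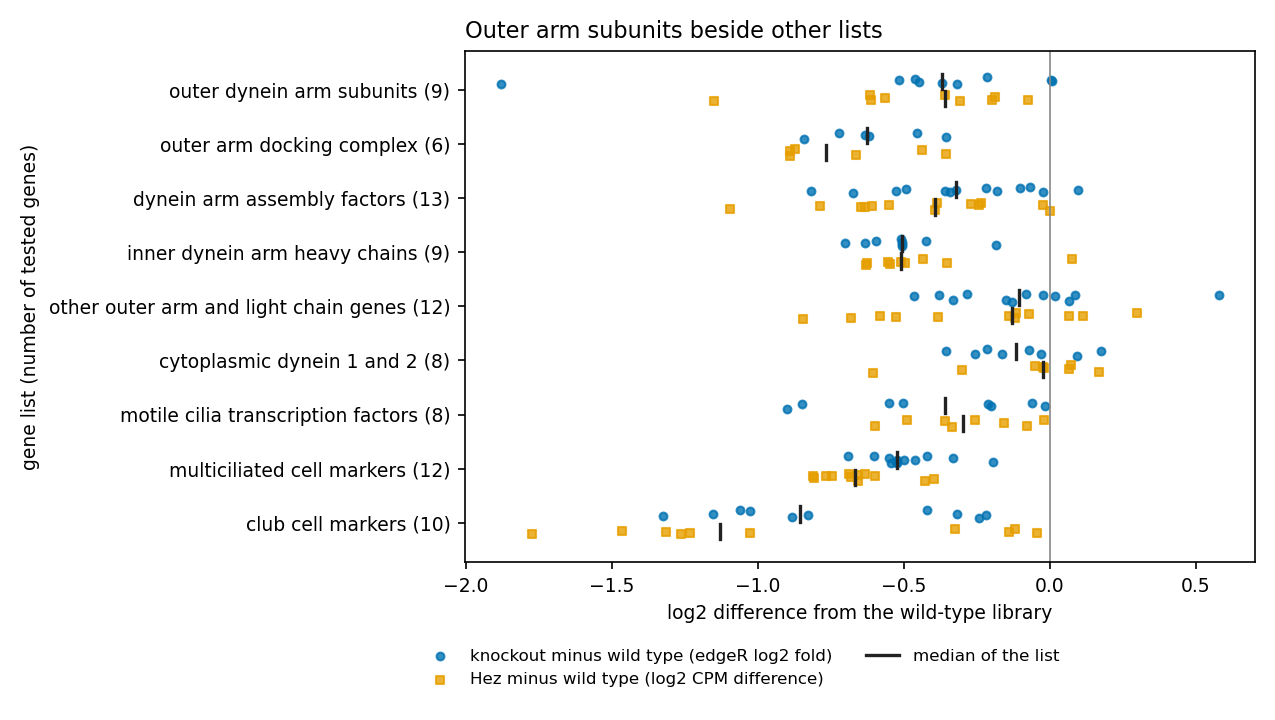
Log2 difference from the wild-type library for each tested gene of the outer arm subunits and of 8 other lists, for the knockouts (circles) and for Hez (squares), with vertical bars at each list's median. The medians of the docking complex lie at -0.63 and -0.77 and those of cytoplasmic dynein at -0.12 and -0.02, and Dnah9 is the leftmost circle at -1.88.

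The genes most like Dnah9 and most like Dnah5 were sought among 14116 genes with a mean of at least 1 CPM, by the Euclidean distance over 3 values, the log2 CPM of knockout 1, knockout 2 and Hez minus wild type. Nearest to Dnah5 were Ccdc78 (distance 0.0103), Ccdc40 (0.0214) and Ccdc30 (0.0224). Ccdc40 is needed for the ruler that spaces the dynein arms, and Ccdc78 takes part in making the many centrioles of ciliated cells. Ccdc40 had 704 reads in wild type, 472 in Hez, and 497 and 518 in the knockouts. Its closeness to Dnah5 in every library is set by the choice on distance. Among the subunits Dnai2 (0.167) and Dynlrb2 (0.208) were the nearest to Dnah5. Dnah9 had no such close neighbour: the nearest, Drp2 (0.258), Slc35d3 (0.285) and Efcab5 (0.456), had 10 to 71 reads per library. The nearest subunit to Dnah9, Dynlrb2, was at a distance of 2.02. In the order given, the 3 values were -1.93, -1.82 and -1.15 for Dnah9 and -0.49, -0.41 and -0.61 for Dnah5. The distance is not scaled to the size of these differences. A targeted gene with a large fall can therefore lie far from other genes for that alone.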

How the data were processed

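Lung RNA of 4 libraries was made into cDNA libraries with a TruSeq kit and run on an Illumina HiSeq instrument, per the labels' protocols. The read count per gene is a whole number deposited by the authors, and the deposited FPKM equals that count divided by library total and gene length for 66024 of 66024 values above 0 (relative tolerance 1e-06). Per the submitters' processing notes the genome build is GRCm39; aligner, counter, annotation release and strand use are not given in the sources consulted. Labels do not say whether libraries come from separate mice or litters. The only spread between libraries in the p-values is that of the 2 knockout libraries, pooled with that of other genes. It is possibly technical. The wild-type and Hez groups, with 1 library each, add no such spread.

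Counts were filtered with filterByExpr (minimum count 10; 15055 genes tested), scaled by TMM (factors 0.993 to 1.01) and tested two-sided with edgeR 4.0.16 (R 4.3.3) quasi-likelihood on 3 groups with 1 residual degree of freedom and 7.02 prior degrees of freedom, so standard errors draw mostly on other genes; Benjamini-Hochberg threshold 0.05. The scripts were tested on simulated data. Hez against wild type used log2 CPM with a prior count of 2 and no test. limma 3.58.1 and DESeq2 1.42.0 were alternatives, with other filters, scalings, references and left-out libraries. Shared sequence was counted in 50-base words of GENCODE vM21 transcripts; promoters are RefSeq GRCm38.p6, kept apart from the GRCm39 coordinates. The subunits, lists and tests were chosen with earlier results of these data known. Named genes are all 10 subunits, the 2 most abundant genes of each list and any list gene past the threshold. The 3 nearest genes to Dnah9 and to Dnah5 are also named. Dnai3, Dnah8, Dnah17, Cfap45, Lrrc6 and the untested list genes were added after their values were seen.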

Additional observations from a re-analysis of the deposited data

How the results depend on the processing

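Depth was alike in the 4 libraries, and the lone wild-type and Hez libraries set the limit on precision. Dnah9 stayed below wild type in all alternatives, at -1.94 to -1.22. With no filter (-1.88) and at a mean of at least 10 CPM (-1.89) its edgeR call held only just within the threshold. Its call was lost with limma on FPKM at a pseudocount of 0.5 (-1.48, with or without the filter), 0.1 (-1.79) and 1 (-1.22), and with wild type and Hez as one reference (-1.42). The subunits called then numbered 0. The 8 genes called against wild type became 4 with no filter or a mean of at least 10 CPM, 16 with DESeq2 (8664 genes with an adjusted p), 1 with limma on FPKM, 0 with limma and no filter (1021 at an unadjusted p below 0.05), and 2 with the joined reference. The 1 gene called against Hez became 6 with DESeq2 and 0 with limma at 0.5 or 0.1 (558 to 897 at an unadjusted p below 0.05).

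The median of the other subunits against wild type, -0.34, moved to -0.31 and -0.27 with FPKM pseudocounts of 0.5 and 1 and to -0.14 with the joined reference. Leaving out one library gave -0.3487 (knockout 2) to -0.3145 (knockout 1). For Hez it moved from -0.33 to -0.29 with FPKM. Dnal4 and Dynll1, at 0.0043 and 0.0093, turned to -0.0084 and -0.0028 with library totals, -0.0092 and -0.0043 above 10 CPM, and -0.0130 and -0.0034 (pseudocount 0.5), -0.0137 and -0.0034 (0.1) and -0.0122 and -0.0033 (1) with limma. Leaving out a knockout library leaves no residual degrees of freedom and gives values with no test. For the causes of these shifts nothing was tested.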
